A study of Gallus gallus and Dromaius novaehollandiae and Alligator mississippiensis with 60 samples.

Results

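A set of 9 genes was high in the claw epidermis of alligator embryos relative to 2 kinds of alligator body scale, and lay at much the same level in claw, feather and foot scale epidermis of chicken and emu embryos. These 9 genes, of 17889 in the deposited table, were chosen by measured values, so the contrasts that chose them are described here without a test. A gene was selected when its mean log2(TPM + 1) in alligator claw exceeded the higher of the flank and femoral scale means by at least 1.5 and its claw mean in each bird lay within 0.5 of each of the feather, scutate scale and reticulate scale means. TPM values are transcript abundances, set against the length of the gene and the sum of the library. A selected gene also had a mean of at least 2 TPM in chicken epidermis, chicken dermis and epidermis means within 1.5, and a chicken feather change between stages under 0.8 in size, both on the log2 scale.

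Claws are cornified sheaths that the epidermis lays down over the last bone of a digit, and scales and feathers are other cornified products of the same layer. Both begin in many species as placodes, local thickenings of the epidermis, which then grow and take shape during morphogenesis under signals exchanged with the dermis beneath. In birds, broad overlapping scutate scales cover the front of the lower leg and the top of the toes, and small reticulate scales pave the sole. The genes carry chicken Ensembl identifiers only. The deposited table does not pair these with symbols, and no annotation used here matched them, so no function is given for any of them.

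The study set out, by its title, to compare the gene programs of scales, claws and feathers across species. The alligator samples, all epidermis, were claw at morphogenesis (Ferguson stage 22) and placode (stage 21), flank scale, which the labels call symmetric, at morphogenesis (stage 23) and placode (stage 22), and femoral scale, which the labels call asymmetric, at morphogenesis (stages 23 to 24) and placode (stage 21), with 2 libraries in each group. Alligator claws came from the foot. The labels say flank where the series' design text speaks of dorsal scales, and the labels are followed here. In chicken and emu, epidermis of claw was sampled at morphogenesis (Hamburger-Hamilton stage 38) and placode (stage 36), scutate scale at stages 40 and 37, reticulate scale at stages 40 and 39, and feather of the dorsal and femoral tracts at stages 36 and 33 to 34. The emu labels call the second feather tract flank/femoral, and it is called femoral here. The bird epidermis groups held 2 libraries each, except emu claw placode and emu reticulate placode with 1. Chicken dermis added 1 library for each appendage, tract and stage. No group had been given a drug or carried a mutation per the labels. Of 60 libraries, 30 were chicken, 18 emu and 12 alligator.

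Between 10860 and 12158 genes reached 1 TPM in a chicken library, 6451 to 6941 in an emu library and 7127 to 7569 in an alligator library. Alligator claw libraries carried sequencing lane numbers 1 and 2, femoral scale libraries lane 3 and flank scale libraries lane 7, so that, for alligator, appendage and lane cannot be told apart. Claw samples were also younger at morphogenesis than the scale samples. The labelled tissue could not be checked against named marker genes. In its place, genes that were at least 4-fold higher in 1 chicken layer were read in alligator. The 489 dermis-enriched genes had a median claw minus scale difference of -0.09 (log2), with 46.4% higher in claw, and summed to 8938 to 10585 TPM in claw libraries and 7784 to 19152 TPM in scale libraries. The 244 epidermis-enriched genes had a median of 0.29, with 59.4% higher in claw, and summed to 36060 to 72117 TPM in claw libraries and 25343 to 40659 TPM in scale libraries, whereas all 7811 genes tested in alligator had a median of 0.09 and the 9 genes one of 1.95. The part of layer make-up in the claw difference was not tested. In such bulk samples, more cells of a type and more RNA per cell cannot be told apart.

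In alligator, 332 of 9295 genes with a value, 3.57%, met the claw threshold. Of these, 200 also had a value in chicken and emu, 56 of which lay level in the chicken appendages and 27 in the emu ones too, and the 3 remaining conditions on chicken left 9. From the other side, 779 genes met every condition except the claw threshold, and the 9 genes are 1.16% of them. The median claw minus higher scale difference was 0.22 (log2) among the 779 and 0.00 among all alligator genes. After median-of-ratios scaling, which sets libraries to a common median ratio of genes, 1299 genes met these other conditions with a median of -0.015, and after quantile normalization 1378 did with a median of -0.029. In 3 of the 779 claw lay at least 1.5 below both scales.

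ENSGALG00000005699 showed the largest claw minus higher scale difference, 2.02 on the log2 scale. Its TPM in claw libraries was 34.7 and 40.7 at morphogenesis and 52.2 and 35.8 at placode, against 9.52 and 5.76 in flank scale at morphogenesis, 9.76 and 10.8 in flank scale at placode, 6.96 and 8.88 in femoral scale at morphogenesis and 10.7 in both femoral scale placode libraries. The lowest claw library was more than 3 times as high as the highest scale library, and claw averaged 40.9 ± 7.97 TPM (SD, n = 4) against 9.14 ± 1.87 TPM in the scales (SD, n = 8).

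ENSGALG00000006876, with a difference of 1.98, was among the most abundant transcripts of the set. It stood at 954 and 758 TPM in claw at morphogenesis and 454 and 377 TPM at placode, against 168 and 142 TPM in flank scale at morphogenesis, 138 and 129.7 TPM in flank scale at placode, 146 and 190.4 TPM in femoral scale at morphogenesis and 132 and 135 TPM in femoral scale at placode. The 8 scale libraries formed a low band, and the claw libraries split by stage above it, with a claw mean of 636 ± 268 TPM (n = 4) and a scale mean of 148 ± 21.0 TPM (n = 8).

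ENSGALG00000009139, with a difference of 1.97, had the same shape at a lower level: 95.2 and 101 TPM in claw at morphogenesis and 58.5 and 41.5 TPM at placode, against 13.9 to 20.2 TPM over the 8 scale libraries (median 16.9). Here the scale libraries at placode lay above those at morphogenesis, the reverse of claw.

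ENSGALG00000006963 was the only gene of the 9 whose claw and scale libraries overlapped, and the least abundant. It was at 21.9 and 18.02 TPM in claw at morphogenesis and 5.76 and 2.11 TPM at placode, against 1.89 and 1.83 TPM in flank scale at morphogenesis, 0.839 and 0.894 TPM in flank scale at placode, 3.75 and 4.05 TPM in femoral scale at morphogenesis and 0.753 and 0.392 TPM in femoral scale at placode. The second claw placode library fell below both femoral scale morphogenesis libraries, although within each stage every claw library was above every scale library. Its claw minus higher scale difference was 1.82 (log2).

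ENSGALG00000010185, with a difference of 1.78, had 115 and 121 TPM in claw at morphogenesis and 63.3 and 45.1 TPM at placode, against 23.7 and 15.8 TPM in flank scale at morphogenesis, 13.2 and 14.2 TPM in flank scale at placode, 29.6 and 28.95 TPM in femoral scale at morphogenesis and 17.3 and 17.2 TPM in femoral scale at placode. Claw and both scales were each higher at morphogenesis, and the claw libraries stayed above all scale libraries.

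ENSGALG00000003532, with a difference of 1.68, was flat in claw and moved in scale. Its claw libraries held 645 and 635 TPM at morphogenesis and 653 and 626 TPM at placode, a mean of 639.5 ± 11.5 TPM (SD, n = 4). The scales held 144 and 125.8 TPM in flank at morphogenesis, 184 and 217 TPM in flank at placode, 101 and 123 TPM in femoral at morphogenesis and 361 and 345 TPM in femoral at placode. Its scale libraries thus overlapped nowhere with claw, and both scales were lower at morphogenesis.

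ENSGALG00000004268, with a difference of 1.66, owed most of its distance to the claw libraries at morphogenesis. They held 54.0 and 60.9 TPM, the claw placode libraries 17.01 and 13.7 TPM, and the 8 scale libraries 6.63 to 9.73 TPM with a median of 8.30. The claw mean was 7.26 times the scale mean at morphogenesis and 1.77 times at placode, the widest gap between stages among the 9.

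ENSGALG00000005947, with a difference of 1.65, had 48.6 and 66.5 TPM in claw at morphogenesis and 28.2 and 23.3 TPM at placode, against 11.03 and 8.82 TPM in flank scale at morphogenesis, 10.2 and 10.5 TPM in flank scale at placode, 15.8 and 16.6 TPM in femoral scale at morphogenesis and 9.05 and 7.25 TPM in femoral scale at placode. ENSGALG00000009307, the last inside the threshold at 1.54, had 76.8 and 80.6 TPM in claw at morphogenesis and 95.7 and 90.3 TPM at placode, against 22.6 to 37.2 TPM over the 8 scale libraries (median 28.5). In both genes all claw libraries were above all scale libraries.

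**Figure D1:**
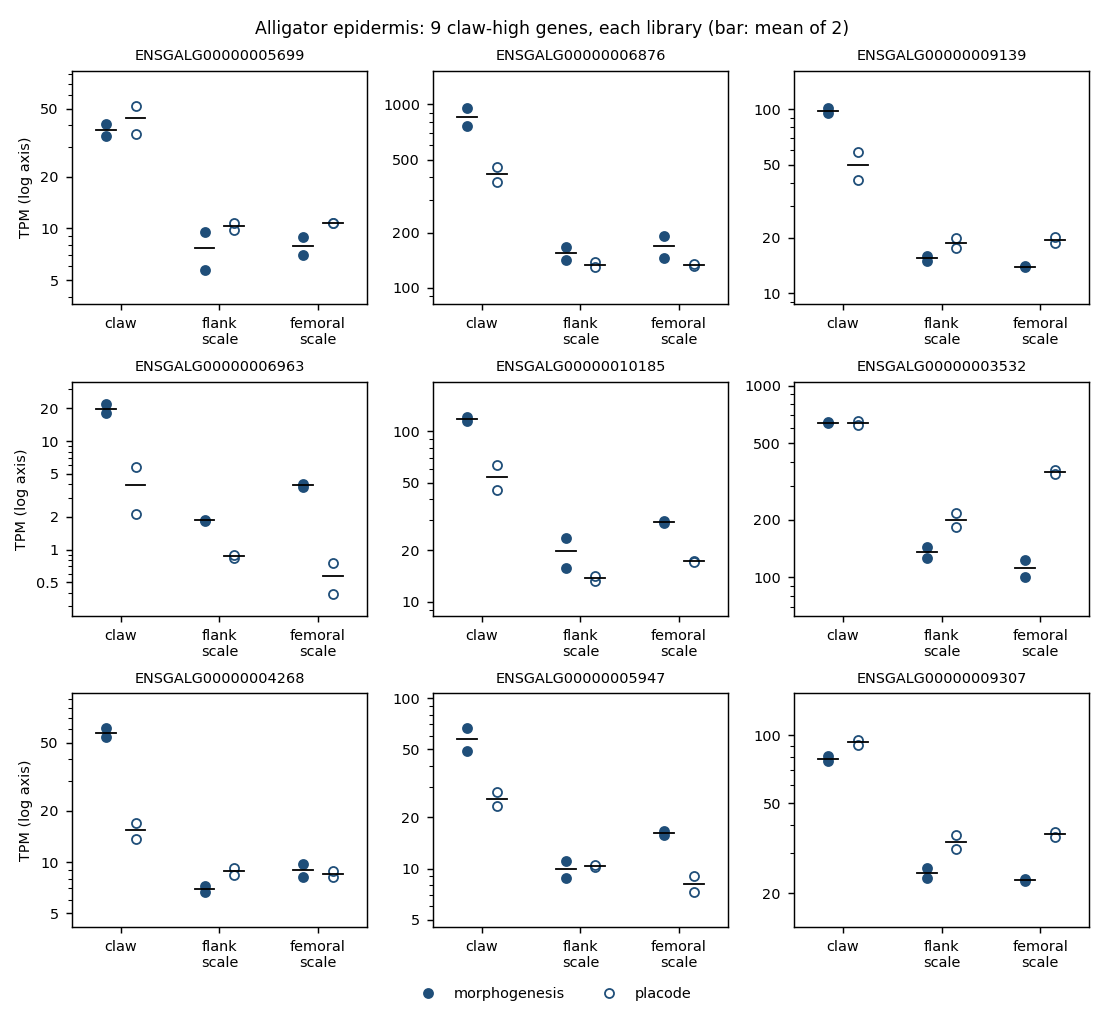
TPM of the 9 genes in each of the 12 alligator epidermis libraries, on log axes, for claw, flank scale and femoral scale; filled points are morphogenesis, open points placode, and bars are means of 2 libraries. Claw libraries lie above every scale library in 8 panels; in ENSGALG00000006963 a claw placode library at 2.11 TPM lies below femoral scale libraries of up to 4.05 TPM.

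In all, the 4 claw libraries lay above the 8 scale libraries in 8 of the 9 genes, against 21.4% of the 7811 genes tested in alligator. The rule used this contrast, and nothing further is read from the count. Mean claw TPM was 2.92 to 6.64 times the mean over scales. It was 3.33 to 7.26 times the scale mean at morphogenesis and 1.77 to 5.47 times at placode. At equal Ferguson stage, claw placode over femoral scale placode (both stage 21) gave 1.79 to 6.88, and claw morphogenesis over flank scale placode (both stage 22) gave 2.33 to 23.0, with the gene of lowest abundance, ENSGALG00000006963, at the top of each range. These ratios come from the libraries that chose the genes and are a description, so the part of age in the claw difference was not tested. The genes nearest outside the threshold that met every other condition were ENSGALG00000001959 and ENSGALG00000012205, both at 1.32, and ENSGALG00000004693 at 1.30.

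The first claw placode library was above the second in all 9 genes, by 1.04 to 2.72 times, whereas this held for 41.0% of the 7811 genes. Without the second of these libraries 12 genes met the rule, all 9 among them, and without the first 8 did. Leaving out the other alligator libraries 1 at a time left 7 to 9 genes. The scale of the values mattered as well. After median-of-ratios scaling 6 of the 9 genes still met the whole rule, and after quantile normalization 5 did. The alligator difference of the 9 then ran from 1.44 to 1.94 under median-of-ratios scaling and from 1.28 to 1.94 under quantile normalization. All 9 were higher in claw under both.

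In birds the same genes varied little. Over the 20 chicken epidermis libraries the highest value of a gene was 1.55 to 2.65 times its lowest, and over the 18 emu libraries 1.40 to 2.72 times, against 4.24 to 55.8 times over the 12 alligator libraries. The rule largely set this contrast, since it held the bird appendage means close and the alligator means apart, and it is given as a description. The largest claw minus other appendage difference of a gene, in either bird, was 0.25 to 0.49 in size (log2) in the values as deposited. It was smallest in ENSGALG00000005947 and largest in ENSGALG00000003532, whose chicken claw mean lay 0.49 below the feather mean. This evenness depended on the scale of the values: the range was 0.17 to 0.83 after median-of-ratios scaling and 0.09 to 0.67 after quantile normalization. Claw was the lower side in most chicken comparisons of the deposited values. In ENSGALG00000005699, ENSGALG00000006876, ENSGALG00000009139, ENSGALG00000006963, ENSGALG00000003532, ENSGALG00000004268 and ENSGALG00000005947 the chicken claw mean was below the feather, scutate and reticulate means alike. These too are values the rule used, and carry no test. The share of all genes lower in claw was not computed. By percentile within the library, chicken claw averaged above the other appendages in ENSGALG00000005699 (66.6 against 62.6) and ENSGALG00000009139 (64.2 against 63.2). The same held in ENSGALG00000006963 (50.7 against 48.1), ENSGALG00000004268 (73.9 against 73.0) and ENSGALG00000005947 (59.6 against 53.0). Claw was below them in ENSGALG00000006876 and ENSGALG00000003532. No direction is read from the lower means.

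**Figure D2:**
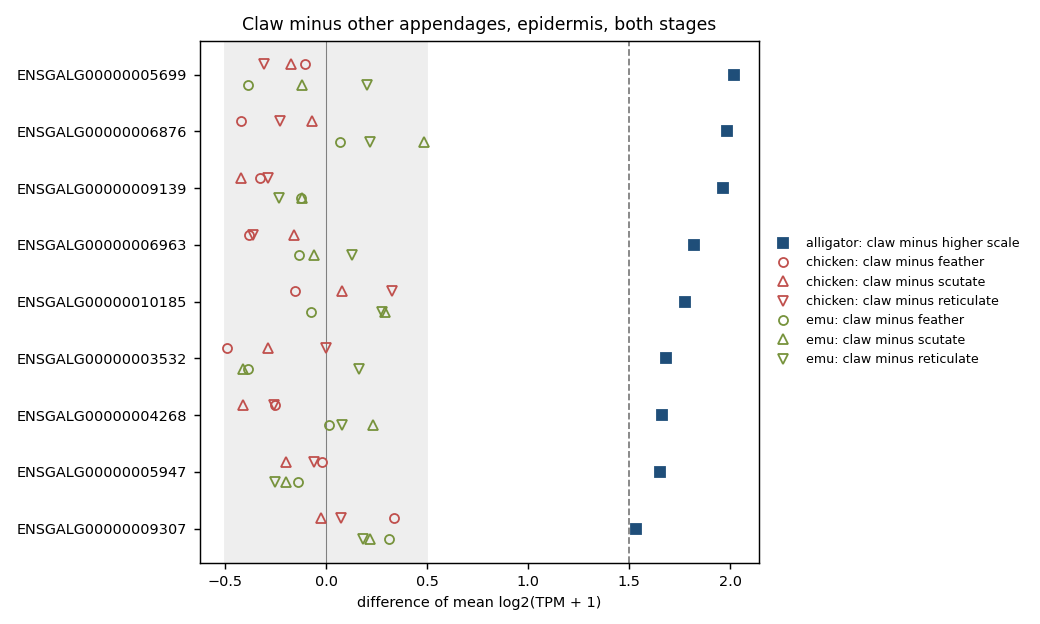
Claw minus other appendage, as a difference of mean log2(TPM + 1) over both stages, for each of the 9 genes. Squares are alligator claw minus the higher scale (1.54 to 2.02, right of the dashed threshold of 1.5), red symbols chicken and green symbols emu; the grey band spans 0.5 either side of 0, and every bird value lies in it because the rule required it.

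Levels of the 9 genes in birds spanned a wide range. Chicken epidermis averaged 557 ± 112 TPM for ENSGALG00000003532 (SD, n = 20 libraries), the highest of the 9, and 16.8 ± 3.37 TPM for ENSGALG00000006963, the lowest. Emu epidermis averaged 601 ± 125 TPM and 14.8 ± 1.87 TPM for the same 2 genes (n = 18). ENSGALG00000005699 was lower still in emu, at 5.32 ± 1.31 TPM, against 30.2 ± 4.34 TPM in chicken epidermis; levels set across species rest on columns scaled separately. Chicken dermis minus epidermis ran from -0.9985 in ENSGALG00000005699 to 0.38 in ENSGALG00000009139 (log2), within the limit of 1.5 that the rule set.

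The place of a gene in the order of its own library would not move if each column had been scaled by 1 constant, which could not be checked. Among the 6150 genes with a value in all 3 species, the 9 genes stood at percentiles 42.5 to 98.5 in alligator claw and 22.6 to 94.8 in alligator scales, as means over libraries. Their bird mean was the plain average of the claw and the other appendage means of chicken and emu, and lay between 47.5 and 98.5. It gives claw as much weight as all other appendages together. In alligator scales 8 of the 9 genes stood below their mean percentile in birds, by 3.7 to 29.2 points, and ENSGALG00000006876 stood above it by 11.6 points. In alligator claw 5 genes stood above the bird mean, by 0.68 to 23.3 points, and 4 below it, by 0.002 to 5.01 points. ENSGALG00000004268 stood furthest below birds in alligator scales: its mean percentile was 63.0 in alligator claw, 37.6 in alligator scales, 73.9 in chicken claw and 62.9 in emu claw. ENSGALG00000005699 was the gene furthest above birds in alligator claw, at 71.3 there and 39.0 in alligator scales, against 66.6 in chicken claw and 32.3 in emu claw. The rule set the alligator scales below claw and so had a part in both counts, and the share of all genes below birds was not computed. These percentiles are a description, with no test.

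**Figure D3:**
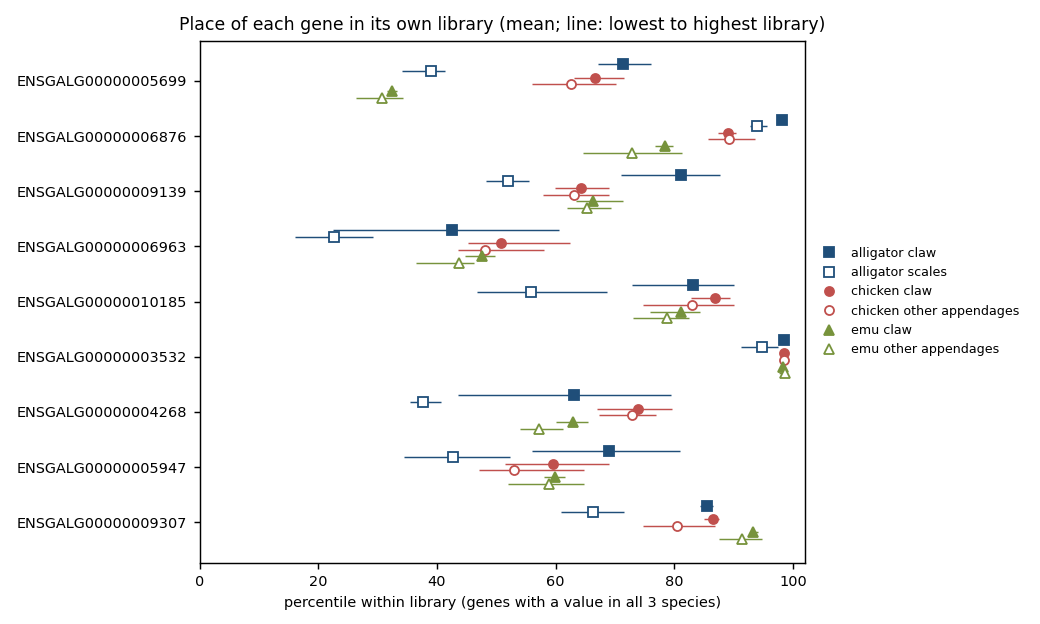
Percentile of each of the 9 genes within its own library, among 6150 genes with a value in all 3 species; symbols are means over libraries of alligator claw and scales and of claw and other appendages of chicken and emu, and lines run from the lowest to the highest library. Alligator scales (open squares) lie left of alligator claw in every gene, and below the bird mean percentile in 8 of the 9. The rule set the scales below claw and had a part in both.

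The rule averaged both stages in alligator and did not use the change between them, so this change was tested. The tests in alligator are not free of the rule, since the same libraries chose the genes. The claw minus higher scale difference was 1.65 to 2.59 (log2) at morphogenesis. At placode it was 0.73 to 1.92, and under 1.5 in most of the 9 genes. Most thus met the threshold through the morphogenesis libraries, which the claw tests use again. Tests used limma on log2(TPM + 1) with Benjamini-Hochberg adjustment over all genes of a fit, at an adjusted p of 0.05, and all 9 genes passed the filter of every fit. In alligator claw 6 of the 9 genes rose at morphogenesis relative to placode and 0 fell, with a median of 1.04 (log2), against 13.2% of 7811 genes that rose and 41% that fell, with a median of -0.26. ENSGALG00000006963 rose by 2.18 (SE 0.29, adjusted p = 0.000123) and ENSGALG00000004268 by 1.84 (SE 0.14, adjusted p = 6.61e-06). The other 4 genes that rose did so by 0.98 to 1.13, and the 3 that did not pass had differences of 0.00, -0.20 and -0.24. The 3 are ENSGALG00000003532, ENSGALG00000005699 and ENSGALG00000009307.

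That share is set beside the genes that met the alligator threshold whatever they did in birds: of 331 tested, 60.1% rose and 12.4% fell, with a median of 0.86. Of 776 tested genes that met every condition except the alligator threshold, 12.9% rose and 29.9% fell. The share of risers among the 9 was close to that of the claw-high genes as a whole. Without the claw morphogenesis library on lane 1, the 3 remaining claw libraries shared lane 2, and the 6 rises were 0.87 to 2.05 with adjusted p of at most 0.00288. After median-of-ratios scaling 26.6% of genes rose and 23.1% fell in claw, the median of all genes was 0.01, and 7 of the 9 rose. After quantile normalization 20.5% rose and 25.8% fell, and 6 of the 9 rose.

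In the alligator scales the 9 genes split. At morphogenesis relative to placode 3 rose, averaged over flank and femoral scale, and 3 fell, against 11.6% of genes that rose and 31.6% that fell. ENSGALG00000006963 rose by 1.13 (SE 0.21, adjusted p = 0.00153) and ENSGALG00000010185 by 0.60 (SE 0.13, adjusted p = 0.00351), and the third rise was 0.43. ENSGALG00000003532 fell by 1.11 (SE 0.08, adjusted p = 8.69e-06) and ENSGALG00000009307 by 0.55 (SE 0.07, adjusted p = 0.000234), and the third fall was 0.36. The third fall lost its call in 3 of 13 alternatives: without the second flank scale placode library (adjusted p = 0.0667), after median-of-ratios scaling (adjusted p = 0.121) and after quantile normalization (adjusted p = 0.0575). The third rise lost its call without the second femoral scale placode library (adjusted p = 0.0563) or the first flank scale morphogenesis library (adjusted p = 0.0609). The median of the 9 was -0.13, as was that of all 7811 genes. Of the 331 genes at the alligator threshold 30.5% rose and 11.2% fell, with a median of 0.13. After median-of-ratios scaling 18.8% of genes rose and 17.6% fell, and 4 of the 9 rose and 2 fell.

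The difference between those stage changes, claw minus scales, was positive in all 9 genes and passed its own test in 6, with 0 negative, against 12.3% of genes higher and 23% lower. It was largest in ENSGALG00000004268, at 1.97 (SE 0.18, adjusted p = 4.84e-05), and ENSGALG00000009139, at 1.34 (SE 0.18, adjusted p = 0.000347). The other 4 that passed lay at 0.69 to 1.11, and the 3 that did not at 0.21 to 0.53. Their make-up differed: in ENSGALG00000004268 the scales changed by -0.13 and claw by 1.84, whereas in ENSGALG00000003532 claw changed by 0.00 and the scales fell by 1.11. Of the 331 genes at the alligator threshold, 42.6% passed on the higher side and 13% on the lower side. The call of ENSGALG00000006963 (1.05, adjusted p = 0.0405) was the least stable, and was lost in 12 of 17 alternatives, with adjusted p up to 0.34; without the second claw placode library its value was 0.49. The call of ENSGALG00000005947 was lost without that library (0.56) or without the second claw morphogenesis library (0.47). In each case fewer of the 9 genes, and fewer of all genes, passed. With median-of-ratios scaling 19.7% of genes were higher and 17.1% lower, and 8 of the 9 were higher. The steps compared were unlike in Ferguson stage: 21 to 22 in claw, 22 to 23 in flank scale, and 21 to between 23 and 24 in femoral scale.

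In bird claw, with chicken and emu weighted equally, 2 of the 9 genes rose at morphogenesis relative to placode and 0 fell, against 7.48% of 6776 genes that rose and 22.7% that fell. ENSGALG00000010185 had 90.7 and 87.0 TPM in chicken claw at morphogenesis and 56.6 and 75.7 TPM at placode, and 71.9 and 77.3 TPM in emu claw at morphogenesis and 51.7 TPM in the single emu placode library. The stages did not overlap in either bird, and the gene rose by 0.48 (SE 0.12, adjusted p = 0.0063). ENSGALG00000004268 had 48.2 and 41.2 TPM in chicken claw at morphogenesis and 27.2 and 36.5 TPM at placode, and 28.04 and 30.1 TPM in emu claw at morphogenesis and 27.4 TPM at placode.

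ENSGALG00000004268 rose by 0.29 over both birds (SE 0.11, adjusted p = 0.0435), and by chicken and emu alone the differences were 0.49 (adjusted p = 0.00971) and 0.08 (adjusted p = 0.794). ENSGALG00000006963, which had the largest change in alligator claw, had 10.3 and 10.6 TPM in chicken claw at morphogenesis and 22.4 and 14.01 TPM at placode, and 15.4 and 13.6 TPM in emu claw at morphogenesis and 13.5 TPM at placode. The chicken stages stood in the opposite order to alligator, with mean log2(TPM + 1) of 3.51 at morphogenesis and 4.23 at placode. The emu stages were level, at 3.95 and 3.85. Over both birds, which averages these unlike changes, the difference was -0.31 (SE 0.14) and did not pass (adjusted p = 0.0909). After median-of-ratios scaling 15.4% of genes rose and 8.83% fell in bird claw, with a median of all genes of 0.01, so most genes that passed no longer fell. ENSGALG00000010185 and ENSGALG00000004268 kept their calls under that scaling. In chicken alone 5 of the 9 genes passed, 3 higher and 2 lower, against 9.56% of all genes higher and 18.1% lower. In emu alone 0 passed in limma, with 1 at an unadjusted p under 0.05, against 2.64% of all genes higher and 7.48% lower. Without the first chicken claw placode library, or without the second emu claw morphogenesis library, fewer of the 9 genes, and fewer of all genes, passed. The call of ENSGALG00000004268 was lost in both cases and without the first chicken claw morphogenesis library (0.23, adjusted p = 0.142).

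The stage change of claw was larger in alligator than in the birds for 6 of the 9 genes and smaller for 0, by a test of the difference itself, against 7.69% of 4671 genes higher and 15.5% lower. The differences were 2.49 in ENSGALG00000006963 (SE 0.28, adjusted p = 5.86e-07) and 1.56 in ENSGALG00000004268 (SE 0.17, adjusted p = 4.42e-07), and 0.65 to 1.10 in the other 4. ENSGALG00000005699, ENSGALG00000003532 and ENSGALG00000009307 gave -0.28, 0.24 and -0.01 and did not pass. Without the second claw placode library or either claw morphogenesis library of alligator, fewer of the 9 genes, and fewer of all genes, passed. Without the second chicken claw placode library fewer of the 9 passed, but more of all genes. The differences were still positive in the genes lost. Of 156 tested genes at the alligator threshold, 32.7% were higher and 5.77% lower. The stages bear the same names in all species but come from different staging systems. With median-of-ratios scaling 11.5% of genes were higher and 12% lower, and 6 of the 9 were higher. This comparison uses the alligator claw libraries of the claw tests above.

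In bird foot scales, scutate and reticulate of both birds weighted equally, 1 of the 9 genes rose at morphogenesis and 3 fell, against 9.84% of genes that rose and 20.7% that fell. ENSGALG00000009307 rose by 0.26 (SE 0.07, adjusted p = 0.00493). ENSGALG00000003532 fell by 0.44 (SE 0.07, adjusted p = 5.06e-05), and ENSGALG00000009139 by 0.23 (SE 0.08, adjusted p = 0.0379). ENSGALG00000003532 thus fell at morphogenesis in the scales of alligator and of the birds, a pair of tests that share no library. Its emu values show it most: 545 and 606 TPM in scutate scale at morphogenesis against 791 and 738 TPM at placode, and 366 and 335 TPM in reticulate scale at morphogenesis against 716 TPM in the single placode library. The emu stages did not overlap. In chicken a reticulate morphogenesis library at 466 TPM lay above a placode library at 426 TPM. A chicken scutate morphogenesis library at 585 TPM also lay above a placode library at 573 TPM. Outside the scales, the stage difference of ENSGALG00000003532 was -0.24 in bird claw, 0.06 in emu feather and 0.00 in alligator claw, none of which passed. In chicken feather, where the rule capped the change, the difference was -0.36. Chicken claw means were 406 TPM at morphogenesis against 519 TPM at placode. The chicken scale means were 534 against 588 TPM in scutate and 432 against 494 TPM in reticulate. In chicken the lower level at morphogenesis was thus not particular to the scales.

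After median-of-ratios scaling 15.4% of genes rose and 14.5% fell in the foot scales, and 3 of the 9 rose and 1 fell. In scutate scales alone 1 of the 9 passed, on the lower side, against 5.58% of genes higher and 7.33% lower. Leaving out any of 7 libraries brought the 4 calls to 2: both chicken scutate placode libraries, the first chicken reticulate placode, the first chicken scutate morphogenesis, the second emu scutate placode, the first emu scutate morphogenesis and the first emu reticulate morphogenesis library. In each of these cases fewer of all genes passed too. The call of ENSGALG00000009139 was lost in 12 of 21 alternatives. The third gene that fell on average, ENSGALG00000005699, kept its call in 8 of 21, lost it with the same sign in 12 and changed sign in 1. Its birds went opposite ways. In chicken its mean was higher at morphogenesis than at placode: 33.9 against 27.9 TPM in scutate scale and 36.1 against 32.0 TPM in reticulate scale. In emu it was lower: 4.57 against 5.45 TPM in scutate scale, and 2.74 TPM against 6.81 TPM in the single reticulate placode library. Leaving out that library was not run.

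**Figure D4:**
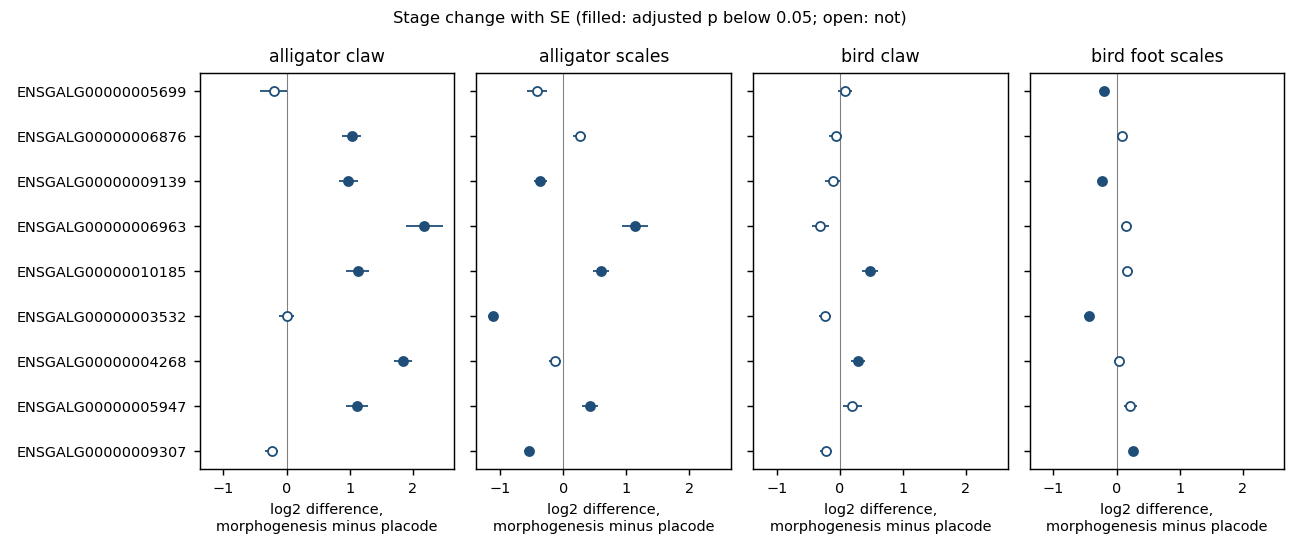
Change from placode to morphogenesis of the 9 genes as a log2 difference of TPM + 1 (morphogenesis minus placode) with its SE, in alligator claw, alligator scales, bird claw and bird foot scales; filled points passed an adjusted p of 0.05 in limma. In alligator claw 6 genes lie at 0.98 to 2.18 and the others at -0.24 to 0.00. Bird values lie within -0.44 to 0.48. They average chicken and emu, and in foot scales also scutate and reticulate scale, so unlike changes can cancel. In chicken claw ENSGALG00000006963 averaged 3.51 (log2) at morphogenesis against 4.23 at placode. In emu claw it averaged 3.95 at morphogenesis against 3.85 in the single placode library.

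Chicken feather was bound by the rule, so feather was tested in emu. The 4 libraries of each stage came from 3 embryos by their titles, since 1 embryo gave both tracts, but entered the fit as separate libraries, so these p-values may be too small. At morphogenesis 1 of the 9 genes rose and 1 fell, against 7.51% of genes that rose and 5.53% that fell. ENSGALG00000009307 had 142, 134, 154 and 167 TPM at morphogenesis against 102.9, 105, 130.2 and 126.4 TPM at placode, with no overlap, and rose by 0.36 (SE 0.09, adjusted p = 0.0082). ENSGALG00000006876 had 44.2, 51.6, 50.1 and 44.6 TPM at morphogenesis against 70.0, 70.7, 52.0 and 51.7 TPM at placode, and fell by 0.34 (SE 0.09, adjusted p = 0.0125). Its stages did not overlap, but by a small margin in the femoral tract. Its call was lost without the first dorsal or the second femoral morphogenesis library, and fewer of all genes passed in both cases.

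Under the chicken claw, the dermis did not differ detectably from the dermis of the other appendages in any of the 9 genes. Differences, with 2 claw dermis libraries against 8 others and stage as a term, ran from -0.22 to 0.17 (log2), the smallest adjusted p was 0.454, and 0 of the 9 reached an unadjusted p of 0.05 in limma. Of 12860 genes in that fit, 5.07% were higher and 3.11% lower in claw dermis. By their titles, the dorsal and femoral feather dermis libraries of each stage came from the same embryo. They entered the fit as separate libraries. ENSGALG00000006876 had 86.6 and 78.5 TPM in claw dermis, within the 70.9 to 124 TPM of all dermis libraries, and a difference of -0.22 (SE 0.14). The SE of the 9 genes lay between 0.12 and 0.32, and a difference would have to be well beyond its SE to be detected.

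Between the dorsal and femoral feather tracts of both birds 0 of the 9 genes differed, with differences of -0.13 to 0.21, a smallest adjusted p of 0.21 and 1 gene, ENSGALG00000006876, under an unadjusted p of 0.05 in limma. Of 6776 genes 0.0148% were higher and 0.0295% lower in the dorsal tract.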

How the data were processed

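The deposited TPM values form a single table of 17889 genes by 60 libraries, made by the authors, in which every species carries chicken gene identifiers. Per the labels' protocols, epidermis was freed with dispase and libraries were strand-specific and enriched for polyadenylated RNA. Among the tools in the submitters' processing notes are HTSeq 0.5.3p9, TopHat2 2.0.6 and CASAVA, whose roles are not stated there. How the authors scaled the emu and alligator columns is not stated, and genome builds are not given in the sources at hand. Columns summed to 994044 to 999897 TPM in chicken, 549879 to 549939 in emu and 619786 to 619877 in alligator, and no pair of columns was identical. TPM sets each gene against the library total, so a shift in abundant genes moves all others, and it keeps no read depth, so depth is unknown and no counting interval was computed.

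Groups came from the labels. The design text calls replicates biological; a p-value here reflects only how these libraries spread. The members, lists and tests were chosen with earlier results of these data known. Appendage means were means over libraries of log2(TPM + 1), which understates the change of low genes. limma 3.58.1 in R 4.3.3 fitted group means with trend and robust shrinkage, after leaving out genes under 1 TPM in all but 1 library, or in all, of any species fitted, and was tested on simulated data. Alternatives changed the pseudocount, filter, scaling, shrinkage, groups entered and single libraries.

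Of 17889 identifiers 0 matched a symbol in the RefSeq gene table, so 24 lists of named genes, cell type markers among them, could not be applied and no sequence is shown. The rule on named genes then allows 2 identifiers each way in a tested comparison; the 9 genes themselves, the genes nearest outside the threshold and genes that did not pass are also named. By their titles, many feather libraries of the dorsal and femoral tracts came in pairs from 1 specimen, and the deviations of such pairs correlated across 6776 genes at 0.128 to 0.362. With the specimen as a replicate block, in chicken only, 0 of the 9 genes differed between tracts, as without the block.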

Additional observations from a re-analysis of the deposited data

Results flagged for a closer look

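In 6 of the 9 genes the stage change of alligator claw differed from that of the alligator scales by a test of the difference itself, in limma with adjusted p at 0.05. All 6 were on the higher side, against 12.3% of 7811 genes higher and 23% lower, and 42.6% higher and 13% lower among the 331 genes at the alligator threshold. ENSGALG00000004268 gave 1.97 and ENSGALG00000009139 gave 1.34 (log2, claw minus scales), and the other 4 values were 1.11, 1.05, 0.77 and 0.69. The claw and scale steps covered unlike Ferguson stages.

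In 6 of the 9 genes the stage change of alligator claw also differed from that of bird claw, on the higher side, against 7.69% of 4671 genes higher and 15.5% lower. Among the 156 tested genes at the alligator threshold 32.7% were higher and 5.77% lower. ENSGALG00000006963 gave 2.49 and ENSGALG00000004268 gave 1.56 (log2, alligator minus birds), and the other 4 values were 1.10, 1.10, 0.92 and 0.65. Both tests use the same 4 alligator claw libraries, which also had a part in choosing the genes. In these the first placode library was above the second in all 9 genes. Leaving out any of these libraries left a group with a single library. Without the second placode library or either morphogenesis library, fewer of the 9 genes, and fewer of all genes, passed in both comparisons. Without the first placode library, more of the 9 and of all genes passed in the comparison with scales. In that with birds as many of the 9 passed, and fewer of all genes.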

How the results depend on the processing

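The number of genes that met the rule, or of the 9 that passed in a comparison, stayed within 1.5 times its value in 143 of 158 recomputed counts, 39 of which were 0 throughout. With a claw threshold of 2, 1 gene met the rule, and leaving out an alligator library gave 7 to 12. In bird claw the 2 calls became 5 in chicken alone, 0 in emu alone and 1 to 3 without a library; in bird foot scales the 4 became 1 in scutate scales alone and 2 to 4 without a library; in emu feather the 2 became 1 to 2. The cause was not tested. Of 466 values of single genes called in a comparison, 57 lost their call and 1 changed sign: ENSGALG00000005699 gave 0.027 in scutate scales alone, against -0.21 in both foot scales. The rises in alligator claw kept their calls in all 10 alternatives. In the comparison of alligator and bird claw, 2 calls were lost in 4 and 2 of 15 alternatives. The block by specimen changed no call between feather tracts (0 with and without it). Leaving out emu claw placode or emu reticulate placode, groups of 1 library, was not run. With 2 libraries a group, no depth and a single lane per alligator scale, small changes and lane effects cannot be resolved.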
